A study of Mus musculus with 12 samples.

Results

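The 29 genes described here encode subunits of voltage-gated potassium (Kv) channels, and were taken by symbol from a table of read counts for 47069 mouse genes. They are 5 Kv1 genes, 3 Kv beta genes, 1 Kv2 gene, 3 Kv3 genes, 2 Kv4 genes, 4 genes of Kv channel-interacting proteins (KChIPs), 2 Kv7 genes, 5 genes of the ether-a-go-go (EAG, ERG and ELK) family and 4 genes of silent subunits. All 29 were among the 17286 genes that had enough counts to be tested. RNA was taken from frontal cortex of both hemispheres of male C57BL/6 mice and sequenced as mRNA libraries. The 12 libraries form 4 groups of 3: mice labelled HDAC2(loxP,loxP), CamKIIa-Cre(+,-) given clozapine, the same genotype given vehicle, wild-type mice given clozapine, and wild-type mice given vehicle. Clozapine, an antipsychotic drug, was given chronically at 10 mg/kg. In the conditional knockout, the Camk2a promoter directs Cre to excitatory forebrain neurons, so Hdac2, a histone deacetylase gene, should be deleted in those cells and not in the other cells of the tissue. Whether the wild-type mice carried floxed alleles or Cre is not given in the sources used here.

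A Kv channel is a ring of alpha subunits around a potassium pore that opens when the membrane depolarises, and it brings the membrane back towards rest. Kv1 channels sit mainly on axons and limit repetitive firing, Kv3 channels allow fast-spiking interneurons to fire quickly, and Kv4 channels carry the transient A-type current of dendrites. Beta subunits bind Kv1 channels and KChIPs bind Kv4 channels inside the cell. Kv7 channels carry the M-current that muscarinic receptors suppress. Silent subunits form no channel of their own and change the properties of Kv2 channels when they join them.

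Libraries held between 23408372 and 28069638 counts. Hdac2 itself was at 70.5 to 73.9 CPM (counts scaled to the size of each library) in labelled knockout (KO) clozapine libraries, 73.3 to 76.6 CPM in labelled KO vehicle libraries, 72.4 to 75.5 CPM in wild-type (WT) clozapine libraries and 63.4 to 75.7 CPM in WT vehicle libraries. Its averaged log2 difference between labelled KO and WT was 0.03 (SE 0.04, adjusted p = 0.651, edgeR), so the counts do not check the genotype labels, and each genotype direction below rests on the labels alone. A count over a whole gene also takes in exons that a conditional allele leaves in place. Markers of cortical cells were present: the summed level of 6 excitatory neuron markers was 5542 to 6763 CPM. Markers of 4 neighbouring structures were low, with sums of 12.9 to 22.3 CPM for thalamic neurons, 9.48 to 14.2 CPM for hippocampal granule neurons, 4.09 to 7.42 CPM for olfactory bulb neurons and 3.47 to 60.6 CPM for choroid plexus. In bulk tissue, fewer cells of a type and less RNA per cell cannot be told apart. The labels name no animals beyond group and number, and the tests therefore set differences against the spread of libraries, which may be technical.

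Levels between genes were compared per kilobase of exon, as CPM per kilobase (FPKM), in means over the 12 libraries. Kcnab2, a beta subunit of Kv1 channels, had the highest level at 108 FPKM. It was followed by Kcnip2, which encodes the Kv4 partner KChIP2, at 62.8 FPKM and by the beta subunit gene Kcnab3 at 59.9 FPKM. Accessory subunits thus held the first 3 places. Of the pore-forming subunits, Kcnh3 of the ELK group led at 47.0 FPKM, before Kcnc1 of Kv3 at 33.3 FPKM and Kcna2 of Kv1 at 28.9 FPKM. The silent subunit gene Kcnf1 stood between them at 30.0 FPKM. At the low end were Kcna3 at 4.68 FPKM, Kcna4 at 3.61 FPKM and Kcnb2 at 1.73 FPKM. Kcna3 had the fewest reads of the 29, with 157 to 301 counts in a library. The ranges of Kcnip2 and Kcnab3 libraries overlapped, as did those of Kcnc1, Kcnf1 and Kcna2, and their order is not beyond the spread of the libraries.

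**Figure D1:**
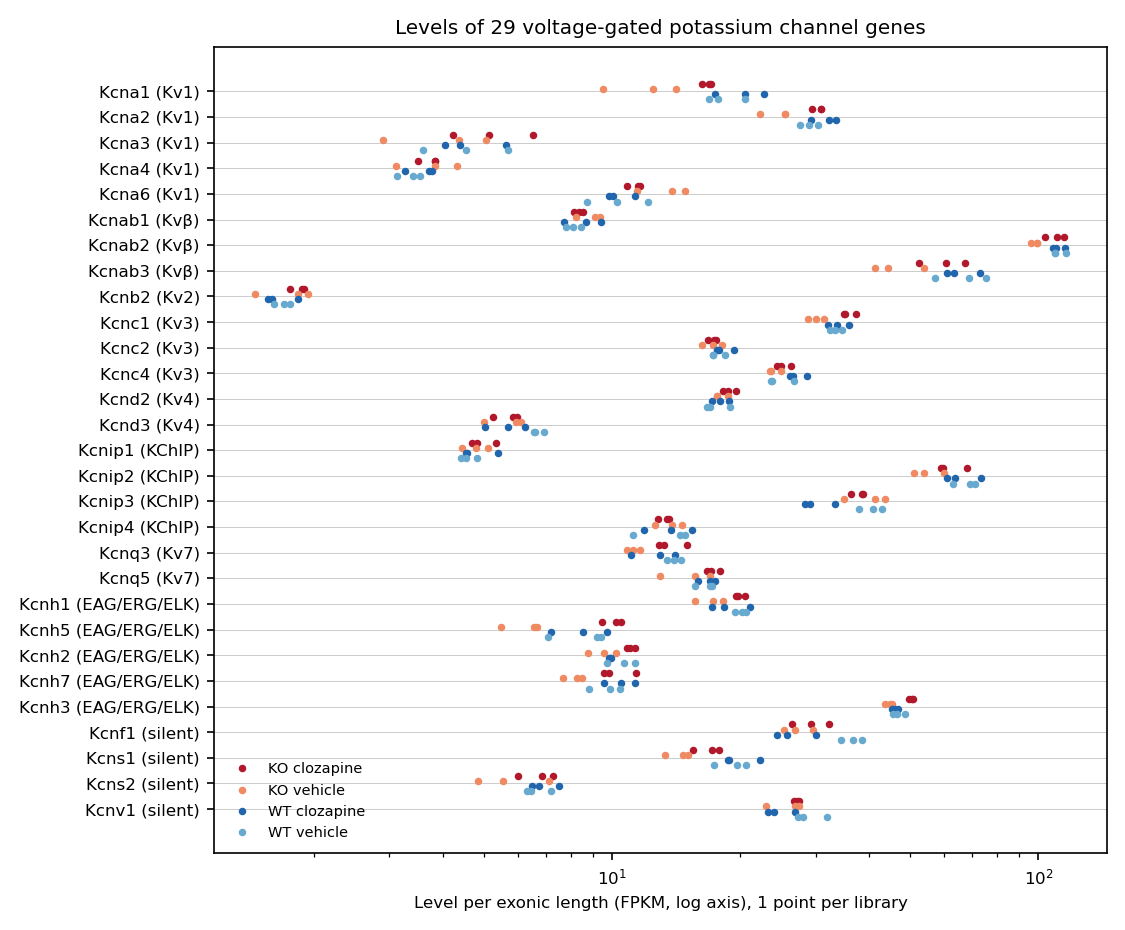
Level of each of the 29 genes per exonic length (x axis, FPKM, log scale), with 1 point per library and the family in brackets; colours mark the 4 groups. Kcnab2 lies at the right with a mean of 108 FPKM and Kcnb2 at the left with 1.73 FPKM.

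Labelled KO mice given vehicle were compared with WT mice given vehicle to ask how the genotype relates to the channel genes without the drug. In this comparison 10 of the 29 genes were lower in the labelled KO libraries, and 0 were higher, at an adjusted p under 0.05 (edgeR quasi-likelihood test, Benjamini-Hochberg adjustment over all 17286 genes). Of all genes tested, 5.15% were lower and 4.01% were higher. The 10 genes were Kcna1 and Kcna2 of Kv1, the beta subunit genes Kcnab2 and Kcnab3, Kcnip2, Kcnq3 of Kv7, Kcnh1 and Kcnh5 of the EAG group, and the silent subunit genes Kcnf1 and Kcns1. In each of the 10, all 3 labelled KO vehicle libraries were below all 3 WT vehicle libraries. The 10 were picked by a test on these same libraries, so this separation is not added support. The share of all genes separated in this way is not given here. The changes were moderate, and the 2 ends of the range were Kcnab2, which fell by 12.1%, and Kcna1, which fell by 34.5%. The median log2 change was -0.18 over the 29 genes, with 22 negative and 7 positive, against a median of 0.00 over all genes tested. The members and the other gene lists were chosen with earlier results of these data known. Their counts and medians, here and below, may therefore not be independent of that choice when set against all genes. At an unadjusted p under 0.05, 15 members were lower and 1 was higher, where 23.8% of all genes had such a p in either direction. DESeq2 called 11 lower and 1 higher, with 10.7% of all genes called, and limma-voom called 10 lower and 0 higher, with 9.26% of all genes called. Values below follow the library numbers in rising order, which are 3, 4 and 5 in the labelled KO clozapine group, 2, 4 and 5 in the labelled KO vehicle group, 2, 3 and 5 in the WT clozapine group and 1, 3 and 4 in the WT vehicle group.

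Within Kv1, 2 of 5 genes fell in labelled KO mice given vehicle. Kcna1, whose loss causes epilepsy in mice and whose human gene is mutated in episodic ataxia, had 59.5, 67.6 and 45.6 CPM in labelled KO vehicle libraries, against 84.8, 97.8 and 80.7 CPM in WT vehicle libraries. The highest labelled KO library stayed under the lowest WT library, and the log2 change was -0.61 (SE 0.14, adjusted p = 0.0216, edgeR). Kcna2, which often shares axonal channels with Kcna1, had 303, 303 and 265 CPM in labelled KO vehicle libraries, against 344, 361 and 328 CPM in WT vehicle libraries. Its groups were also apart, with a smaller log2 change of -0.25 (SE 0.06, adjusted p = 0.023, edgeR). Kcna6, a Kv1 gene of the same axonal channels, had 82.2, 88.0 and 67.8 CPM in labelled KO vehicle libraries, against 51.9, 61.1 and 72.3 CPM in WT vehicle libraries. These groups overlapped, and its log2 difference of 0.36 did not pass the edgeR threshold (SE 0.12, adjusted p = 0.0767), whereas DESeq2 gave an adjusted p of 0.0185 and edgeR with length and GC corrected gave 0.0438. Of its exonic length, 39.6% lies over Gm26673 on the opposite strand, which averaged 1.91 CPM, and whether counting used strand is not given in the sources used here. The remaining Kv1 genes, Kcna3 of T cells and brain and the A-type gene Kcna4, had log2 differences of -0.18 and 0.16 with adjusted p of 0.714 and 0.372 in edgeR.

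Of the 3 beta subunit genes, 2 fell. Kcnab3 had 127, 118 and 155 CPM in labelled KO vehicle libraries, against 216, 197 and 164 CPM in WT vehicle libraries. The gap between the groups was narrow, since labelled KO library 5 was the highest of its group and WT library 4 the lowest of its own, and the log2 change was -0.53 (SE 0.13, adjusted p = 0.0337, edgeR). Kcnab3os on the opposite strand covers 5.13% of its exonic length. Kcnab2, the most abundant of the 29 genes per length, had 554, 555 and 537 CPM in labelled KO vehicle libraries, against 649, 611 and 611 CPM in WT vehicle libraries. The libraries of each group lay close together, so that a small log2 change of -0.19 passed the test (SE 0.05, adjusted p = 0.0302, edgeR). Kcnab1, which gives some Kv1 channels fast inactivation, had a log2 difference of 0.13 with an edgeR adjusted p of 0.256.

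Among the Kv4 channels and their partners, Kcnip2 alone passed the test, out of 2 Kv4 genes and 4 KChIP genes. It had 188, 178 and 209 CPM in labelled KO vehicle libraries, against 247, 240.4 and 219 CPM in WT vehicle libraries. The groups did not overlap, and the log2 change was -0.30 (SE 0.08, adjusted p = 0.0296, edgeR). The A-type channel genes themselves had log2 differences of 0.04 for Kcnd2 and -0.24 for Kcnd3, with edgeR adjusted p of 0.77 and 0.0879. Kcnip1, Kcnip3 and Kcnip4 lay between -0.02 and 0.06 on the log2 scale, and the 95% interval of each included 0.

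Kcnq3, a subunit of the M-current channel, had 171, 165 and 159 CPM in labelled KO vehicle libraries, against 213, 205 and 197 CPM in WT vehicle libraries. The groups were well apart, with a log2 change of -0.31 (SE 0.08, adjusted p = 0.0187, edgeR). Kcnq5, the other Kv7 gene, had a log2 difference of -0.13 that did not pass (adjusted p = 0.344 by edgeR).

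All 5 genes of the ether-a-go-go family had a negative log2 difference, and the 2 EAG genes passed the test. Kcnh5 had 26.6, 27.0 and 22.3 CPM in labelled KO vehicle libraries, against 37.3, 38.2 and 28.7 CPM in WT vehicle libraries. WT library 4 stood well below the other WT vehicle libraries and just above the labelled KO ones, and the log2 change was -0.46 (SE 0.12, adjusted p = 0.0382, edgeR). Kcnh1 had 127, 133 and 114 CPM in labelled KO vehicle libraries, against 142, 151 and 148 CPM in WT vehicle libraries. Its groups did not overlap, and the log2 change was -0.24 (SE 0.07, adjusted p = 0.0402, edgeR). The ERG genes Kcnh7 and Kcnh2, the second of which carries the heart's rapid delayed rectifier, had log2 differences of -0.25 and -0.16 with edgeR adjusted p of 0.0587 and 0.143. The ELK gene Kcnh3 had a log2 difference of -0.07 (adjusted p = 0.329, edgeR).

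Of the 4 silent subunit genes, Kcnf1 and Kcns1 fell, and theirs were the calls in this comparison that held under every alternative setting and with any 1 library left out. For that reason their promoters are shown, as 300-base windows around the annotated start from RefSeq on GRCm38.p6, 5′ to 3′ on the gene's strand, with GC boxes (GGGCGG on either strand) in capitals. Kcns1 (ENSMUSG00000040164.3) lies on the minus strand of chromosome 2, at 164163619 to 164171113, and its window at chr2:164171064-164171363. Kcnf1 (ENSMUSG00000051726.6) lies on the minus strand of chromosome 12, at 17172100 to 17176888, and its window at chr12:17176839-17177138.
Kcns1: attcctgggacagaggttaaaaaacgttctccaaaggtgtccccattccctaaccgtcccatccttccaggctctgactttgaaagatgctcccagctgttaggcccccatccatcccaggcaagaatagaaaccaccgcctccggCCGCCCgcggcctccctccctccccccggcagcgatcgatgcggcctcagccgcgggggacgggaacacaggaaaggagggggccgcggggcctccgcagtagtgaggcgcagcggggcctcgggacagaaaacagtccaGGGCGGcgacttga
Kcnf1: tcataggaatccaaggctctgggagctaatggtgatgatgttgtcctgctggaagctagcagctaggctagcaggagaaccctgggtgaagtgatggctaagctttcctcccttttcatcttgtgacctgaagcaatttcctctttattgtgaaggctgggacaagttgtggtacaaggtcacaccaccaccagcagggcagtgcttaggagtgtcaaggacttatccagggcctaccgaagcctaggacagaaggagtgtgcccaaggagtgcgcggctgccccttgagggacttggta
The windows differ: that of Kcns1 is 64% G or C with 22 CpG sites and 2 GC boxes, and that of Kcnf1 is 53% G or C with 3 CpG sites and no GC box. The median of all 32851 windows is 52.7% G or C with 7 CpG sites. A GC box occurred in 35.7% of all windows, in 17 of the 22 members that have a window and in 6 of the 7 genes with a window that fell in labelled KO vehicle libraries. Other motifs searched for on both strands were in neither printed window, so none overlaps the GC boxes. A cAMP response element (TGACGTCA) was in 1.79% of all windows and in 0 of the 22 members. A TATA box (TATAAA) was in 13.6% of all windows and in 1 of the 22. A CCAAT box (CCAAT) was in 37.4% of all windows and in 9 of the 22, and an E-box (CACGTG) was in 7.15% of all windows and in 1 of the 22. These matches describe letters in the windows only.

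Kcns1, which changes the current of Kv2 channels, had 39.7, 36.1 and 40.8 CPM in labelled KO vehicle libraries, against 53.3, 55.7 and 47.1 CPM in WT vehicle libraries. All 3 labelled KO libraries were lower, with a log2 change of -0.42 (SE 0.08, adjusted p = 0.00551, edgeR). Kcnf1, another modifier of Kv2 channels, had 129, 142 and 121 CPM in labelled KO vehicle libraries, against 165, 176 and 184 CPM in WT vehicle libraries. Its groups were apart as well, with a log2 change of -0.42 (SE 0.09, adjusted p = 0.00971, edgeR). Kcns2 and Kcnv1 had log2 differences of -0.19 and -0.18, with edgeR adjusted p of 0.379 and 0.151. Kcnb2, the Kv2 member, had a log2 difference of 0.04 with a 95% interval of -0.16 to 0.23. Of the Kv3 genes, Kcnc1 had a log2 difference of -0.15 (adjusted p = 0.0819, edgeR), and Kcnc2 and Kcnc4 were at -0.04 and -0.04.

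**Figure D2:**
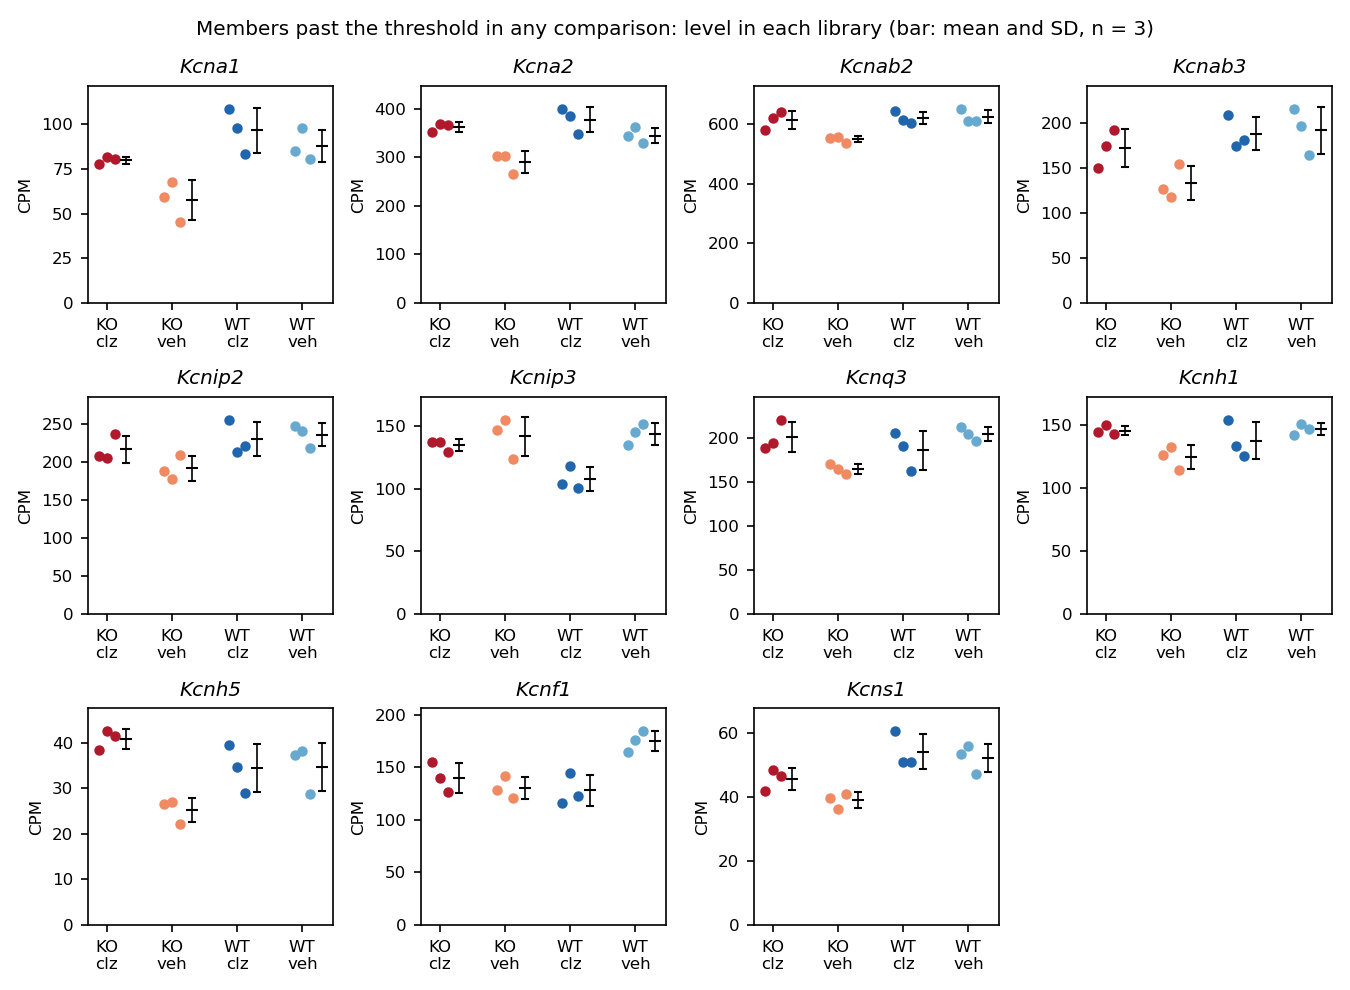
CPM (y axis, from 0) of the 11 genes past the threshold in any comparison, by group (x axis); points are libraries, and the bar beside them is the mean and SD of 3. For Kcna1 the 3 labelled KO vehicle libraries (59.5, 67.6 and 45.6 CPM) lie below the other libraries, while for Kcnip3 the 3 WT clozapine libraries (103, 118 and 100.5 CPM) do.

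The count of 10 depended on single libraries. Of the 10 genes, 2 still passed without WT vehicle library 1, the same 2 (Kcnf1 and Kcns1) without WT vehicle library 3, 4 without labelled KO vehicle library 2, 6 without labelled KO vehicle library 4 and 5 without labelled KO vehicle library 5. Outside the 10, Kcns2 passed as lower without labelled KO vehicle library 2, Kcna6 as higher without labelled KO vehicle library 5 or WT vehicle library 4, and Kcnh7 as lower without WT vehicle library 4, WT clozapine library 2 or 5 or labelled KO clozapine library 5. Library 5 of the labelled KO vehicle group, the deepest of the 12 at 28069638 counts, held the lowest value of 17 of the 29 genes, and the median log2 change of the members was -0.10 without it. The share of all genes tested that had their lowest value in that library is not given here. Members have long transcripts, with a median exonic length of 5578 bases against 4003.5 bases over all genes tested, and over 17197 genes the log2 change in this comparison ran with exonic length at a Spearman's rho of -0.21, a description across genes that share the same 6 libraries. With length and GC content corrected, the median of the members was -0.18. Of 6 upper-layer neuron markers, Cux2 (log2 change -0.32) and Rasgrf2 (-0.22) fell as well, and the sum of the 6 was 1053 to 1136 CPM in labelled KO vehicle libraries, against 1118 to 1318 CPM in WT vehicle libraries. Of 8 interneuron markers 3 had an unadjusted p under 0.05, and the sum of the 8 was 1040 to 1149 CPM in labelled KO vehicle libraries, against 1132 to 1171 CPM in WT vehicle libraries. The part of depth, transcript length or cell makeup in the lower channel genes was not tested beyond these values.

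**Figure D3:**
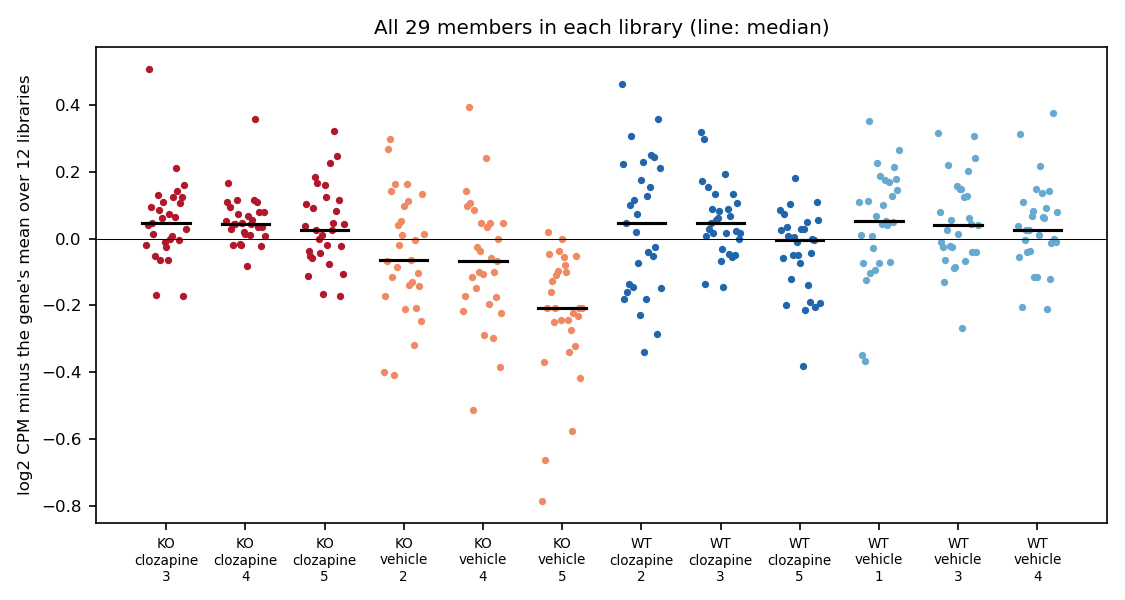
Log2 CPM of each of the 29 genes minus that gene's mean over 12 libraries (y axis), by library (x axis), with the median as a line. Medians lie at -0.06, -0.07 and -0.21 in the labelled KO vehicle libraries and between 0.00 and 0.05 in the other 9.

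Under clozapine, labelled KO and WT mice were compared in the same way. 1 of 29 genes, Kcnip3, was higher in labelled KO clozapine libraries and 0 were lower by edgeR at an adjusted p under 0.05, while 1.48% of all genes were higher. At an unadjusted p under 0.05, 3 members were higher and 1 was lower, against 15.9% of all genes in either direction. DESeq2 called Kcnip3 higher and 0 lower, with 3.85% of all genes called, and limma-voom called 0 members and 1.8% of all genes. Kcnip3 encodes KChIP3, a calcium-binding partner of Kv4 channels also described as the transcriptional repressor DREAM. It had 138, 137 and 129 CPM in labelled KO clozapine libraries, against 103, 118 and 100.5 CPM in WT clozapine libraries. The groups did not overlap, and the log2 change was 0.33 (SE 0.08, adjusted p = 0.0471, edgeR). The call was lost in limma-voom (adjusted p = 0.0504), after correction for length and GC content, and without any of the 3 labelled KO clozapine libraries, WT clozapine library 2 or 5, WT vehicle library 3 or labelled KO vehicle library 2. The summed level of the 6 excitatory neuron markers was 6657 to 6763 CPM in labelled KO clozapine libraries, against 5627 to 5810 CPM in WT clozapine libraries. Of the 6, Camk2a alone passed as higher (log2 change 0.26, adjusted p = 0.0377, edgeR), at means of 4463 and 3715 CPM. The 6 log2 differences were 3 positive and 3 negative, with a median of 0.03. The 6 upper-layer markers had 6 positive and 0 negative log2 differences, and Cux2 passed as higher (log2 change 0.29, adjusted p = 0.028, edgeR). The 7 deep-layer markers had 2 positive and 5 negative. The part of these markers in the Kcnip3 difference was not tested.

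The 10 genes that were lower in the labelled KO under vehicle had log2 differences between -0.27 for Kcna1 and 0.25 for Kcnh5 under clozapine; the test of the difference between treatments is the interaction given further on. Kcna1 had 77.5, 81.4 and 80.6 CPM in labelled KO clozapine libraries, against 108, 98.0 and 83.4 CPM in WT clozapine libraries, a log2 difference of -0.27 (SE 0.14, adjusted p = 0.359, edgeR). Kcns1 had 41.9, 48.3 and 46.5 CPM in labelled KO clozapine libraries, against 60.4, 50.8 and 50.9 CPM in WT clozapine libraries. Both genes were below WT in every library, and the log2 difference of Kcns1 was -0.25 (SE 0.08, adjusted p = 0.14, edgeR). The median log2 difference of the 29 genes was 0.04, with 17 positive and 12 negative.

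Averaged over both treatments, 5 of the 29 genes were lower in labelled KO libraries and 0 were higher by edgeR, while 5.01% of all genes were lower and 5.52% higher. Unadjusted, 8 members were lower and 2 were higher, against 25.5% of all genes in either direction. DESeq2 called 6 lower and 1 higher and 11.5% of all genes, and limma-voom called 5 lower and 0 higher and 10.3% of all genes. The 5 were Kcna1 with a log2 change of -0.44, Kcns1 with -0.33, Kcnab3 with -0.33, Kcnip2 with -0.19 and Kcna2 with -0.15. Kcns1 had the smallest edgeR adjusted p at 0.00197 and kept it under 0.05 in all alternatives run, and Kcna1 kept its call with any 1 library left out. Of the 5 genes, 2 still passed without WT vehicle library 1 or 3, WT clozapine library 2 or labelled KO clozapine library 3 or 4, 3 without WT clozapine library 3 or 5 or labelled KO vehicle library 2 or 4, and 4 without labelled KO vehicle library 5 or labelled KO clozapine library 5. Besides these, Kcnip3 passed as higher without WT clozapine library 3 or labelled KO vehicle library 5, Kcna6 as higher without WT vehicle library 4 or labelled KO vehicle library 5, and Kcnh7 as lower without labelled KO clozapine library 5.

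**Figure D4:**
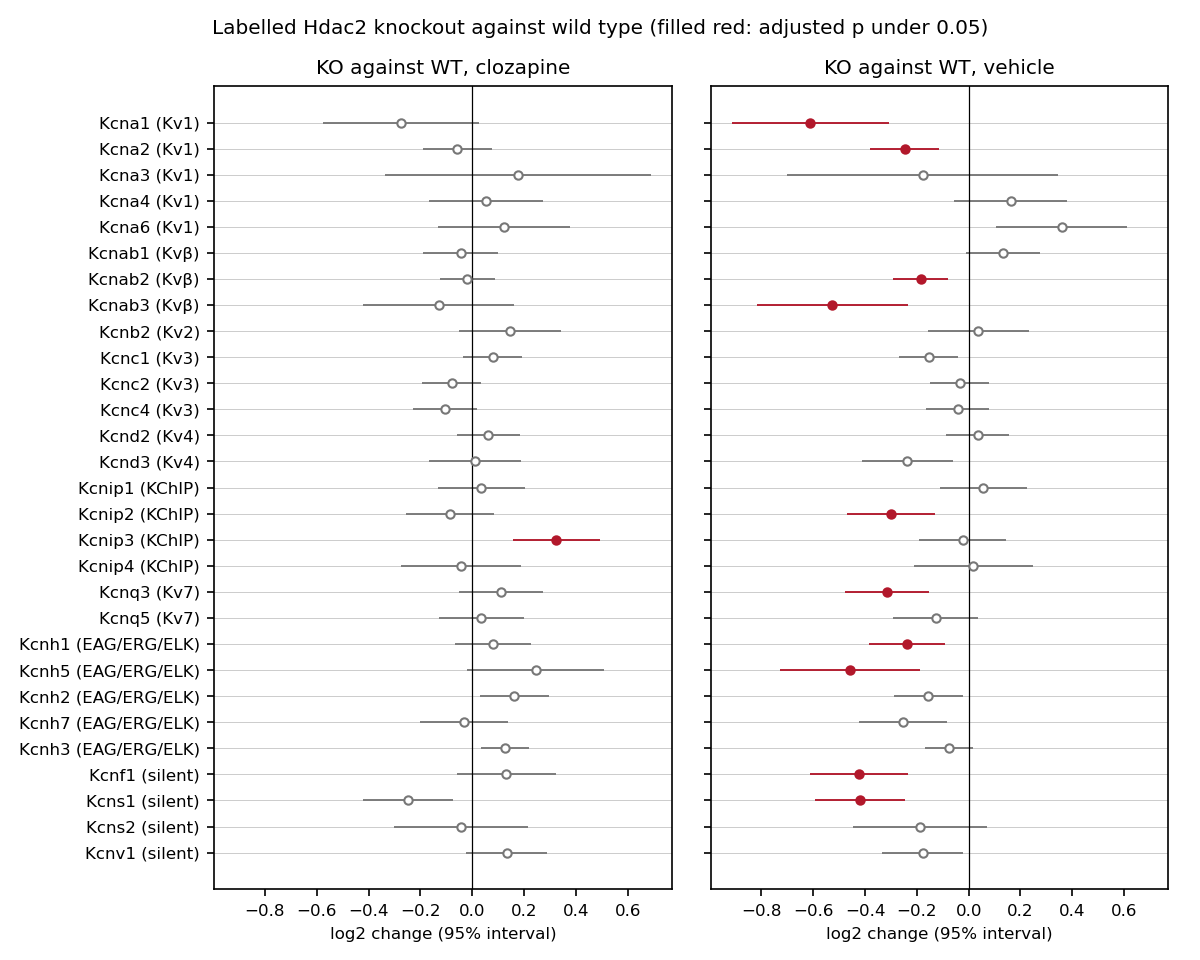
Log2 change between labelled KO and WT (x axis, point and 95% interval) for the 29 genes by family, under clozapine on the left and under vehicle on the right; filled red points passed an edgeR adjusted p of 0.05. Under vehicle 10 filled points lie left of 0, and under clozapine 1 lies right of it.

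Clozapine was compared with vehicle within each genotype. In labelled KO mice, 0 of the 29 genes passed the edgeR threshold, as against 0.0231% of all genes in either direction. Unadjusted, 14 members had a p under 0.05 and all 14 were higher with clozapine, where 12.2% of all genes had such a p. DESeq2 called 8 of the 28 members it gave an adjusted p, all higher (Kcna1, Kcna2, Kcnab3, Kcnc1, Kcnh3, Kcnh5, Kcnh7 and Kcnq3), where it called 2.96% of all genes, and limma-voom called 0 members and 0.0116% of all genes. The median log2 difference of the 29 was 0.18, with 24 positive and 5 negative, against 0.00 over all genes tested. This comparison shares the labelled KO vehicle libraries with that of genotype under vehicle, and without library 5 of that group the median was 0.08.

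All 5 genes of the ether-a-go-go family had every labelled KO clozapine library above every labelled KO vehicle library, as had 11 of the 29 genes and 9.72% of all genes tested. Kcnh5 had 38.4, 42.6 and 41.5 CPM in labelled KO clozapine libraries, against 26.6, 27.0 and 22.3 CPM in labelled KO vehicle libraries. Its log2 difference of 0.69 was the largest of the 29 in this comparison (SE 0.12, adjusted p = 0.0728, edgeR), and 1 member passed without WT vehicle library 4, WT clozapine library 2 or WT clozapine library 5. The other family members had log2 differences of 0.33 for Kcnh7, 0.23 for Kcnh1, 0.22 for Kcnh2 and 0.18 for Kcnh3, with edgeR adjusted p of 0.101, 0.178, 0.154 and 0.108.

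Outside that family, Kcna2 had 351, 368 and 367 CPM in labelled KO clozapine libraries, against 303, 303 and 265 CPM in labelled KO vehicle libraries. Its groups did not overlap, and the log2 difference was 0.32 (SE 0.06, adjusted p = 0.0728, edgeR). Kcnc1, a Kv3 gene of fast-spiking cells, had 333, 331 and 352 CPM in labelled KO clozapine libraries, against 296, 284 and 272 CPM in labelled KO vehicle libraries. It was higher in all 3 clozapine libraries, by 0.25 on the log2 scale (SE 0.05, adjusted p = 0.08, edgeR). Kcna1 was at 79.8 ± 2.08 CPM in labelled KO clozapine libraries and 57.6 ± 11.2 CPM in labelled KO vehicle libraries (SD, n = 3 each), a log2 difference of 0.47. The 95% interval of that difference was 0.17 to 0.78, and labelled KO vehicle library 5 had the lowest Kcna1 value of the 12. The upper-layer markers, whose 6 log2 differences were all positive with 2 at an unadjusted p under 0.05, had sums of 1212 to 1274 CPM in labelled KO clozapine libraries, against 1053 to 1136 CPM in labelled KO vehicle libraries, and their part was not tested.

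In WT mice, clozapine went with lower levels of 2 of the 29 genes and higher levels of 0 by edgeR, while 0.625% of all genes were lower. Unadjusted, 4 members were lower and 1 was higher, against 11.6% of all genes in either direction. DESeq2 and limma-voom each called 2 lower and 0 higher, with 2.12% of all genes called by DESeq2 and 0.752% by limma-voom. Kcnip3 had 103, 118 and 100.5 CPM in WT clozapine libraries, against 135, 145 and 152 CPM in WT vehicle libraries. The groups were apart and the level fell by 25.4%, a log2 change of -0.42 (SE 0.08, adjusted p = 0.021, edgeR). The same WT clozapine values of Kcnip3 enter the comparison of genotype under clozapine, so its calls there and here are not independent. Kcnf1 had 117, 144 and 123 CPM in WT clozapine libraries, against 165, 176 and 184 CPM in WT vehicle libraries. It fell by 26.9%, again with no overlap, and its log2 change was -0.45 (SE 0.09, adjusted p = 0.0344, edgeR). The comparison shares its vehicle libraries with that of genotype under vehicle, in which Kcnf1 also fell, so the same WT vehicle values enter both. The count was 0 without WT vehicle library 3, without WT vehicle library 4, without WT clozapine library 2 or without WT clozapine library 5, and 1 without WT vehicle library 1 or labelled KO clozapine library 4. Of the 6 upper-layer markers Cux2 was lower in WT clozapine libraries (log2 change -0.29, adjusted p = 0.0417, edgeR). The 6 log2 differences were 4 positive and 2 negative, with a median of 0.05. Their sum was 1101 to 1252 CPM in WT clozapine libraries, against 1118 to 1318 CPM in WT vehicle libraries. The median log2 difference of the 29 genes was 0.02.

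**Figure D5:**
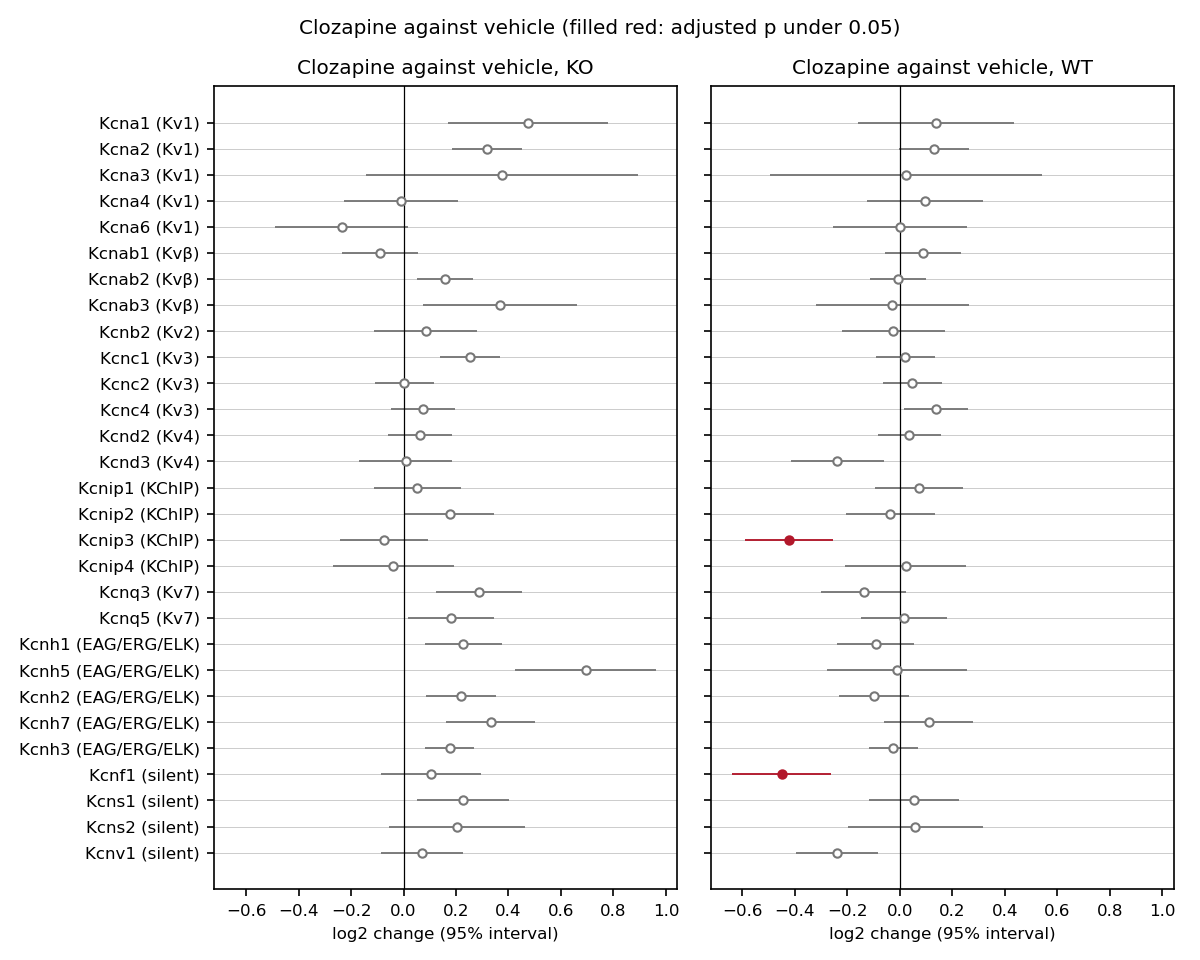
Log2 change between clozapine and vehicle (x axis, point and 95% interval) for the 29 genes by family, in labelled KO mice on the left and in WT mice on the right; filled red points passed an edgeR adjusted p of 0.05. In labelled KO mice 24 of 29 points lie right of 0 and none is filled, and in WT mice Kcnip3 and Kcnf1 are filled at -0.42 and -0.45.

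Whether clozapine's difference itself varied with genotype was tested as an interaction, the log2 difference in labelled KO mice minus that in WT mice. By edgeR 0 of 29 genes passed, with 0.654% of all genes passing in either direction. Unadjusted, 11 members had a p under 0.05, all 11 positive, where 13.6% of all genes had one. DESeq2 called 4 members, all positive (Kcnf1, Kcnh3, Kcnh5 and Kcnq3), and 3.65% of all genes, and limma-voom called 0 members and 0.636% of all genes. Kcnf1 was nearest to the threshold at an interaction of 0.56 (SE 0.12, adjusted p = 0.0646, edgeR), with log2 differences of 0.10 in labelled KO mice and -0.45 in WT mice. Kcnq3 followed at 0.43 (SE 0.11, adjusted p = 0.091, edgeR), and Kcnh5 at 0.70 (SE 0.17, adjusted p = 0.0998, edgeR). For Kcnh5 the log2 difference was 0.69 in labelled KO mice and -0.01 in WT mice, and for Kcnq3 it was 0.29 in labelled KO mice and -0.14 in WT mice. The count was 2 without WT clozapine library 2, and 1 without WT vehicle library 4, WT clozapine library 3, labelled KO vehicle library 4 or labelled KO clozapine library 5.

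Averaged over both genotypes, 0 members passed for clozapine by edgeR, with 0.15% of all genes passing in either direction. Unadjusted, 8 members were higher and 2 were lower, where 11.2% of all genes had such a p, and limma-voom called 0 members and 0.11% of all genes. DESeq2 called 4 higher (Kcna1, Kcna2, Kcnh5 and Kcnh7) and 1 lower (Kcnip3), and 1.1% of all genes. Kcna2 was nearest in edgeR, with a log2 difference of 0.22 (SE 0.04, adjusted p = 0.0578). It passed as higher without WT clozapine library 5, and Kcnip3 passed as lower without labelled KO vehicle library 5.

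Of the 29 genes, 11 passed in at least 1 of the 7 comparisons and 18 in none. The 18 include Kcnc2 and Kcnc4 of Kv3, the A-type gene Kcnd2, Kcnip1 and Kcnip4, whose log2 differences under vehicle between labelled KO and WT lay within 0.06 of 0. For Kcnc2 the 95% interval of that difference was -0.15 to 0.08, and for Kcnd2 it was -0.09 to 0.16.

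Neighbouring genes of the same pathway were read in the genotype comparison under vehicle. Of all genes tested there, 5.15% were lower and 4.01% higher, with a median log2 difference of 0.00. Of 23 other Kv subunit genes, 17 were tested, with 1 higher and a median log2 difference of 0.12. The higher one was the rare Kv1 gene Kcna5, at 3.36 ± 0.976 CPM in labelled KO vehicle libraries and 1.26 ± 0.772 CPM in WT vehicle libraries (SD, n = 3 each). Of 15 proteins that hold Kv channels in place or bind them, 4 were lower in edgeR, with a median of -0.13. Ank3, whose ankyrin-G anchors channels at the axon initial segment, changed by -0.43, Cntnap1, a protein of the paranode, by -0.23 and Amigo1, a partner of Kv2 channels, by -0.16 on the log2 scale. Of 26 other potassium channel and related HCN genes, 1 was higher and 6 lower, with a median of -0.11. Among them Kcnj6, a channel that opens with G-protein signals, changed by -0.68, the inward rectifier Kcnj4 by 0.40 and the mechanosensitive channel gene Kcnk4 by -0.34. Under clozapine Kcnj4 and Hcn4, a pacemaker channel gene, were higher in labelled KO libraries, by 0.31 and 1.23, where 1.48% of all genes were higher.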

How the data were processed

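RNA was sequenced from frontal cortex in 12 libraries, 3 in each of 4 groups. The submitters' processing notes name STAR 2.5.1b, featureCounts and the build GRCm38. The deposited table holds estimated counts, since 7.39% of its values are not whole, and the authors' way of sharing reads and use of strand are not given in the sources used here. Whole counts had been assumed in the planned tests, so values were rounded, with the unrounded ones as an alternative.

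Of 47069 gene identifiers 46574 were named through GENCODE M21 without their version. The filterByExpr step of edgeR kept 17286 genes with 99.9% of counts. All 12 libraries entered 1 robust quasi-likelihood fit (edgeR 4.0.16, R 4.3.3, TMM scaling, Benjamini-Hochberg adjustment over all genes tested, threshold 0.05) with 7 contrasts of the group means. CPM uses TMM-scaled library sizes, and FPKM divides it by the kilobases of exon in GENCODE M21. Totals were 23408372 to 28069638 counts. In 12 pairs of replicates the chi-square per gene was 4.26 to 9.97, above counting error. The fit was tested on simulated data with 200 changed genes.

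Alternatives were DESeq2 1.42.0, limma-voom 3.58.1, other scaling and filters, a replicate block, only the 2 groups compared, a length and GC correction (mgcv 1.9.3), 1 surrogate variable (sva 3.50.0), a threshold of 0.10 and leaving out each library. All 29 members could be named, those past the threshold library by library. From each other list at most 3 genes a comparison were named, those of smallest p that passed and averaged at least 1 CPM. A result of 1 gene among the other Kv subunits is not reported here. The members and lists were chosen with earlier results of these data known.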

Additional observations from a re-analysis of the deposited data

How the results depend on the processing

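None of the 18 calls of single genes changed sign under an alternative run. Among the 203 log2 differences, those that passed no test changed sign in 1 to 20 cases per alternative, 15 of them with length and GC corrected and 20 with the replicate block, and the members' median for clozapine in WT mice ranged from -0.01 to 0.04. Of the calls, 3 held in every alternative: Kcnf1 and Kcns1 under vehicle and Kcns1 averaged over treatments. Counting both directions, 10 members passed for labelled KO against WT under vehicle, 3 with the replicate block, 5 with 1 surrogate variable and 2 to 11 with each library left out. For clozapine in labelled KO mice, 0 passed, 8 with DESeq2, 4 without the low-count filter, 4 with the replicate block, 1 with only the 2 groups compared, 3 at a threshold of 0.10 and 0 to 1 with each library left out. For clozapine in WT mice, 2 passed, 0 with the replicate block, 1 with 1 surrogate variable and 0 to 2 with each library left out. For labelled KO against WT under clozapine, 1 passed, 0 with limma-voom, 0 with length and GC corrected and 0 to 1 with each library left out. For the interaction, 0 passed, 4 with DESeq2, 3 without the filter, 3 at a threshold of 0.10 and 0 to 2 with each library left out. For genotype averaged over treatments, 5 passed, 8 at a threshold of 0.10 and 2 to 6 with each library left out. Under the replicate block 2 of those 5 remained (Kcnip2 and Kcns1), while Kcna1 (adjusted p = 0.0674 in edgeR), Kcna2 (0.0875) and Kcnab3 (0.077) did not pass and Kcna6 (0.0343) and Kcnip3 (0.0459) passed as higher. For clozapine averaged over genotypes, 0 passed, 5 with DESeq2, 2 without the filter, 2 with the replicate block, 1 at a threshold of 0.10 and 0 to 1 with each library left out. The cause of these shifts was not tested. The labels do not say what the replicate numbers stand for. The 10 same-number pairs of libraries correlated at -0.08 to 0.12, 1 of them over 0.1. The 44 other pairs across groups correlated at -0.21 to 0.15, 4 of them over 0.1. Taken over all genes as deviations from group means of 3 libraries, these correlations cannot exclude a tie between libraries. Under the block the median log2 change of the members under vehicle was -0.09. Replicates differed by more than counting error, so depth alone does not set the precision of these tests.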
